A study of Mus musculus with 6 samples.

Results

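The enzymes that make serine, glycine, proline and asparagine, carry one-carbon units on folate, run the methionine cycle and convert homocysteine to cysteine were followed as a set of 38 genes. They were taken by gene symbol from the 31310 named genes in the deposited table, as a list of enzymes put together with earlier results of these data known, so their counts are a description and not independent evidence. The mouse embryonic stem cells, labelled TT-FHAgo2 and clonal, make Argonaute 2 (Ago2), through which microRNAs reach their targets, under control of doxycycline, and their polyA RNA was sequenced. All cells had been propagated in 0.1 µg/mL doxycycline, on gelatin in medium with serum and leukemia inhibitory factor. Cells then kept without doxycycline for 96 h (2 libraries) were set against cells given 2.5 µg/mL for 48 h (2 libraries), a dose the labels tie to wild-type Ago2. The 4 strand-specific libraries were prepared by a procedure the labels name the UTP method. The files number the libraries of each condition 0 and 1, and the labels do not say whether they came from separate cultures, so p-values measure only the spread between libraries, which may be technical. The drug, its hours and Ago2 changed together and cannot be told apart, and doxycycline is also an antibiotic that inhibits translation in mitochondria. The spike-in libraries of embryonic and mesenchymal stem cells were not analysed here.

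Serine is made from the glycolytic intermediate 3-phosphoglycerate and is the main source of one-carbon units in dividing cells. Its conversion to glycine loads a carbon onto tetrahydrofolate, in the mitochondrion and in the cytosol, and that carbon is used for purines, thymidylate and the remethylation of homocysteine. Mouse embryonic stem cells are known to draw one-carbon units from threonine as well. Several of these genes are known targets of ATF4, the transcription factor of the amino acid response. The set's label speaks of synthesis, but Prodh, Tdh, Gcat and the glycine cleavage genes break amino acids down.

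Levels are given as FPKM (fragments mapped per kilobase of transcript and per M fragments, where M stands for mega), summed over the isoforms of a gene, so they can be compared between genes. Each log2 change is the level without doxycycline minus the level with it, after 0.5 was added to both FPKM values, and so it is too small for genes near 0. A gene passed at a Benjamini-Hochberg adjusted p under 0.05 in limma, fitted over the 13207 genes that averaged 1 FPKM or more with or without the drug. The smallest p that an exact permutation test can give for 1 gene in 2 libraries a condition is 0.333. All 38 genes entered the fit, 1 of them (Mthfd2l) only through its level with doxycycline.

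Of the serine, one-carbon and amino acid enzyme genes, 31 of 38 had a log2 change below 0, and 16 of these passed as lower without doxycycline. Thus 16 fell (42.1%), 2 rose (5.26%) and 20 did not pass, where 21.3% of all genes tested fell and 19.7% rose (41.0% passed in all). A fall of 0.5 or more on the log2 scale was seen in 15 of the 38 (39.5%, against 13.0% of all genes) and one of 1 or more in 5 (13.2%, against 2.12%). The falls lay in serine synthesis (3 of 3 genes), serine-glycine exchange (2 of 2), the mitochondrial folate branch (4 of 4), transsulfuration (2 of 2), glycine cleavage (2 of 4), proline (2 of 4) and asparagine synthesis. Of the mitochondrial folate genes, Mthfd2l entered the fit only through its level with doxycycline, where it was higher. None of the 4 cytosolic folate genes, 2 threonine genes or 3 genes of glutamate, glutamine and alanine passed. The median change of the set was -0.25 and its mean -0.43, beside an all-gene median of -0.06. The libraries did not overlap between the conditions in 34 of the 38 genes (89.5%), against 73.1% of all genes tested, and overlapped in Mthfs, Tyms, Amt and Tdh.

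The set summed to 2507 and 2665 FPKM without doxycycline, against 3340 and 3405 FPKM with it. All 31310 named genes together were lower without the drug too, at 449360 and 485192 FPKM against 508954 and 535107 FPKM. The median gene of the set stood at 41.0 and 46.2 FPKM without and at 58.3 and 63.5 FPKM with the drug. Mean levels ran from 0.812 FPKM (Mthfd2l) to 249.9 FPKM (Bcat1) without doxycycline, and from 1.57 FPKM (Mthfd2l) to 351 FPKM (Asns) with it. At 100 FPKM or more stood 9 genes without and 11 with the drug, and 4 genes (Aldh1l1, Mthfs, Mthfd2l and Aldh1l2) stayed under 5 FPKM in both conditions. In RNA from a mass of cells, fewer cells that express a gene and less RNA per cell cannot be told apart.

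**Figure D1:**
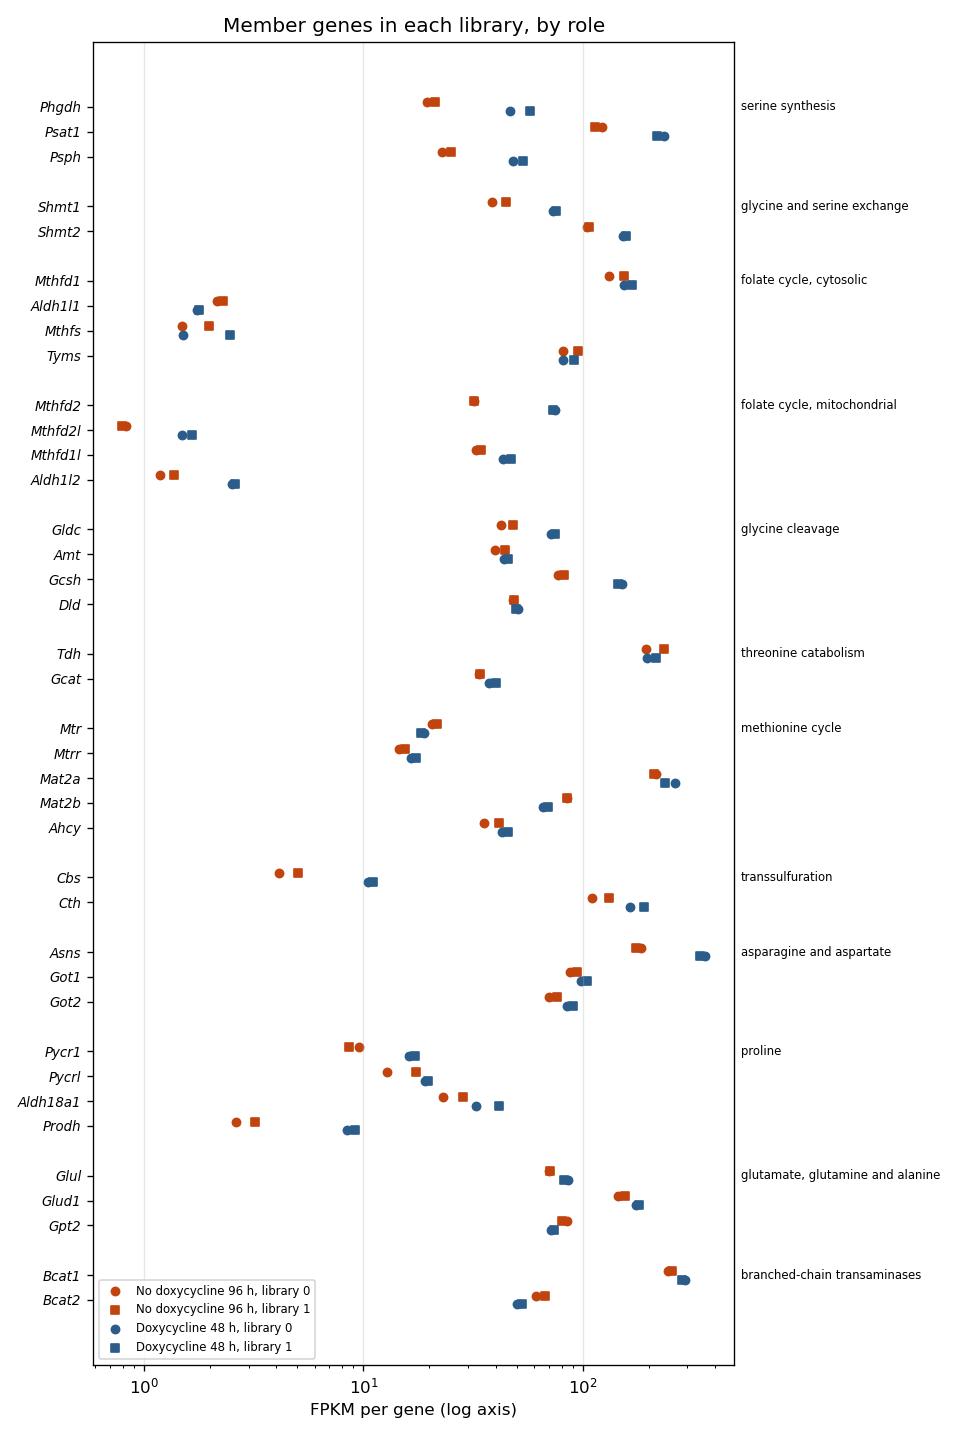
FPKM of each of the 38 genes in each library, on a log axis, grouped by role; orange marks libraries without doxycycline for 96 h, blue marks libraries with doxycycline for 48 h, and circle and square mark the library numbers 0 and 1. The orange points of Phgdh, Psat1 and Psph lie left of the blue ones (Phgdh at 19.6 and 21.1 against 46.5 and 57.5 FPKM), while those of Tyms and Tdh overlap.

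RNA fell for the enzyme of each step of serine synthesis. Without doxycycline, these genes stood between 39.1% (Phgdh) and 52.3% (Psat1) of their level with it. Phgdh (chr3:98117093-98143913, minus strand, build NCBIM37, as are all gene positions below) encodes phosphoglycerate dehydrogenase, which commits 3-phosphoglycerate to serine. It measured 19.6 and 21.1 FPKM without doxycycline and 46.5 and 57.5 FPKM with it. Both libraries without the drug lay under both libraries with it (log2 change -1.33, SE 0.13, limma adjusted p = 0.00263). Psat1 (chr19:15979164-16021827, minus strand), the phosphoserine aminotransferase that adds nitrogen from glutamate, measured 122 and 114 FPKM without doxycycline and 234 and 217 FPKM with it. It was the most abundant of these 3 RNAs in every library, and its groups stood well apart (-0.93, SE 0.09, adjusted p = 0.00285). Psph (chr5:130271434-130293129, minus strand), the phosphatase that releases free serine, measured 22.8 and 25.1 FPKM without and 48.1 and 53.5 FPKM with doxycycline. Its fall lay between those of its partners (-1.07, SE 0.10, adjusted p = 0.00256). The Phgdh RNA was 1 isoform of 1893 nt in effect, which held 99.6% of the FPKM without and 99.9% with doxycycline. Psph was shared between a 1238-nt form (12.4 ± 3.09 FPKM without and 22.1 ± 2.64 FPKM with the drug, SD, n = 2) and a 1101-nt form (9.06 ± 1.56 and 24.2 ± 5.60 FPKM). Both forms were lower without doxycycline in every library.

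RNA of both serine hydroxymethyltransferases, which turn serine into glycine and hand its carbon to tetrahydrofolate, fell. Shmt1 (chr11:60601606-60625220, minus strand), the cytosolic enzyme, measured 38.7 and 44.4 FPKM without doxycycline and 73.4 and 75.3 FPKM with it (log2 change -0.84, SE 0.10, limma adjusted p = 0.00422). Shmt2 (chr10:126954195-126959518, minus strand), the mitochondrial enzyme and the more abundant RNA, measured 104 and 107 FPKM without and 152 and 158 FPKM with the drug (-0.55, SE 0.08, adjusted p = 0.00747). Neither gene had overlapping groups, but Shmt2 did not pass without the doxycycline library numbered 1 (-0.52, adjusted p = 0.0592).

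The mitochondrial folate genes, of which Mthfd2, Mthfd2l and Mthfd1l oxidise the carbon from serine and release it as formate, all fell. Mthfd2 (chr6:83255685-83267600, minus strand), the mitochondrial methylenetetrahydrofolate dehydrogenase, had 31.9 and 31.8 FPKM without doxycycline and 74.8 and 73.1 FPKM with it. Its libraries agreed closely within each condition and stood at 43.0% without the drug (log2 change -1.20, SE 0.08, limma adjusted p = 0.00168). Mthfd2l, its relative with the same activity, was far less abundant, at 0.829 and 0.795 FPKM without and 1.50 and 1.64 FPKM with doxycycline. Mthfd2l entered the fit only through its level with the drug. It fell by 0.66 on the log2 scale (SE 0.13, adjusted p = 0.0148), and did not pass without the doxycycline library numbered 1 (adjusted p = 0.0681). Aldh1l2, the mitochondrial formyltetrahydrofolate dehydrogenase, had 1.19 and 1.37 FPKM without and 2.53 and 2.60 FPKM with doxycycline. The groups were apart at this low level too (-0.79, SE 0.12, adjusted p = 0.0075). Mthfd1l, the synthetase that frees formate, averaged 33.5 ± 1.31 FPKM without and 45.0 ± 2.51 FPKM with the drug (SD, n = 2). Its fall (-0.42, SE 0.09, adjusted p = 0.0181) was the smallest among the genes that passed in this direction, and it was lost without the library off doxycycline numbered 0 (adjusted p = 0.0629) and without either doxycycline library (0.0606 without number 0 and 0.131 without number 1).

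The cytosolic folate genes did not pass. Mthfd1, the cytosolic enzyme with the same reactions in 1 protein, measured 132 and 154 FPKM without doxycycline and 154 and 168 FPKM with it. The lowest library with the drug lay only just above the highest without it (-0.17, SE 0.11, limma adjusted p = 0.262). Tyms, the thymidylate synthase, measured 81.0 and 95.1 FPKM without and 81.6 and 91.4 FPKM with doxycycline, and its range without the drug enclosed the range with it (0.02, SE 0.12, adjusted p = 0.887). Aldh1l1, the cytosolic counterpart of Aldh1l2, averaged 2.22 ± 0.0981 FPKM without and 1.76 ± 0.0310 FPKM with the drug (0.26, adjusted p = 0.111). Mthfs, which returns formyltetrahydrofolate to the cycle, averaged 1.73 ± 0.341 and 1.98 ± 0.673 FPKM (-0.13, adjusted p = 0.663), and its locus in the assembly is shared with Bcl2a1b, so the split of reads is uncertain.

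Between paralogues of the 2 compartments the changes were set side by side without a test of their difference. Mthfd1l and Mthfd1 changed by -0.42 and -0.17, and Aldh1l2 and Aldh1l1 by -0.79 and 0.26, with the mitochondrial gene the one that passed in each pair. Shmt2 and Shmt1, which both passed, changed by -0.55 and -0.84, with the larger change in the cytosolic gene. Got2 and Got1, the mitochondrial and cytosolic aspartate aminotransferases, changed by -0.26 and -0.16 (limma adjusted p = 0.0727 and 0.201). Bcat2 and Bcat1, the mitochondrial and cytosolic branched-chain aminotransferases, changed by 0.32 and -0.21, and of these Bcat2 passed.

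**Figure D2:**
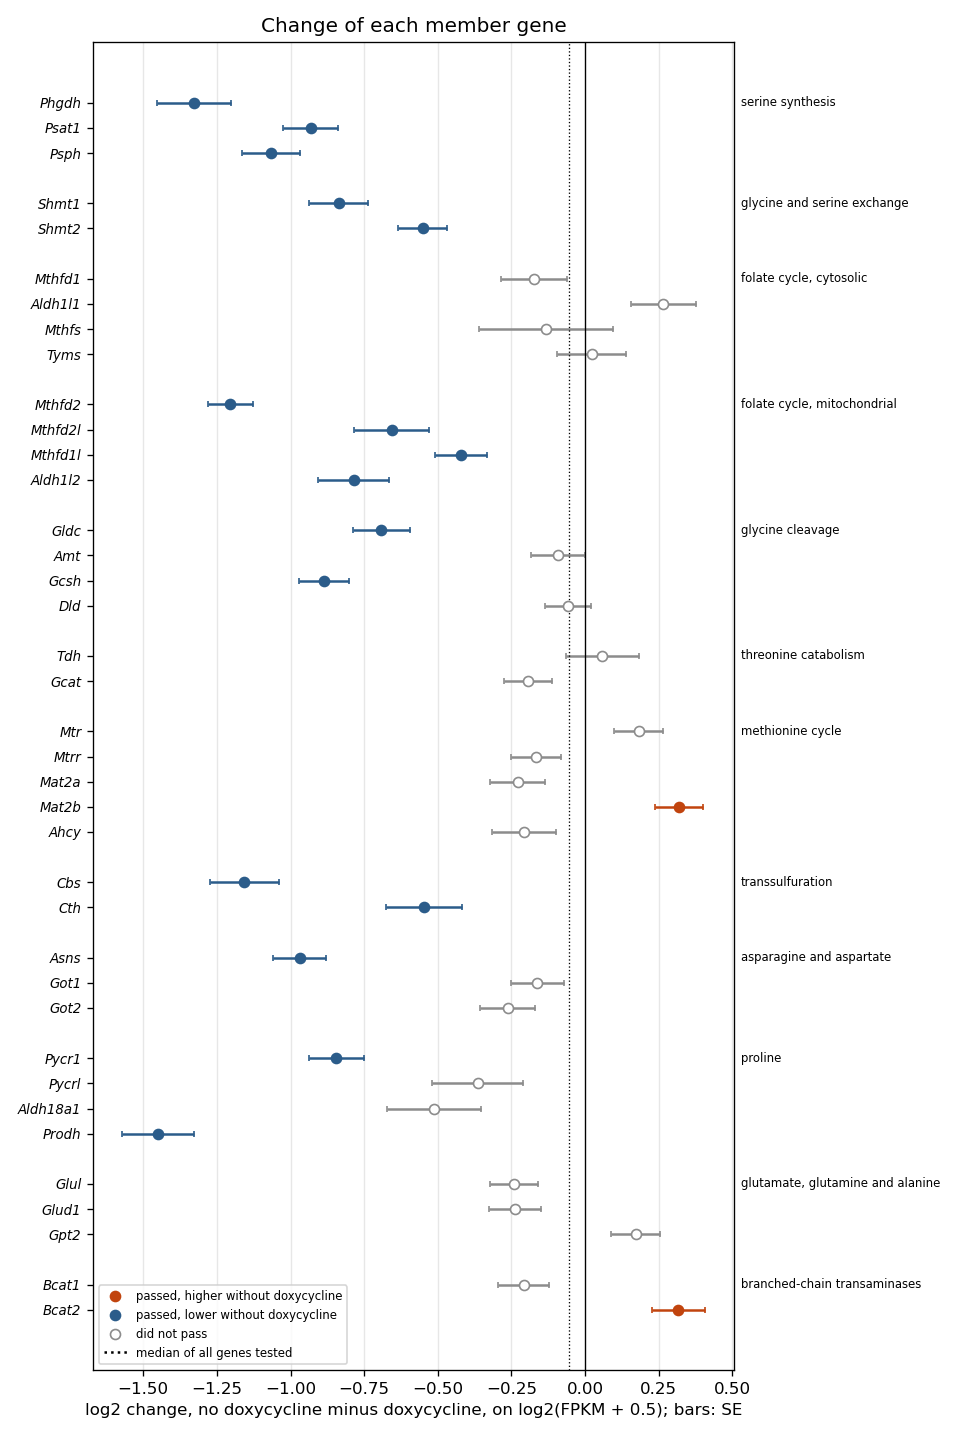
Log2 change of each of the 38 genes, no doxycycline minus doxycycline on the log2(FPKM + 0.5) scale, grouped by role, with bars for the SE from limma; blue marks the 16 genes that fell, orange the 2 that rose, open circles the 20 that did not pass, and the dotted line the median of all genes tested (-0.06). The largest falls are Prodh (-1.45), Phgdh (-1.33) and Mthfd2 (-1.20), and the 2 rises, Mat2b and Bcat2, are both 0.32.

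The glycine cleavage system, 4 mitochondrial proteins that split glycine and pass its carbon to folate, was uneven. Gldc (chr19:30172939-30249908, minus strand), the decarboxylase, measured 42.3 and 48.03 FPKM without doxycycline and 71.5 and 74.8 FPKM with it (log2 change -0.69, SE 0.10, limma adjusted p = 0.00634). Gcsh (chr8:119505710-119517437, minus strand), the lipoate-carrying subunit, measured 77.0 and 81.7 FPKM without and 150.2 and 144 FPKM with the drug (-0.89, SE 0.09, adjusted p = 0.00271). Both were lower in each library without the drug. The other subunits did not pass. Amt, the aminomethyltransferase, averaged 41.8 ± 3.18 FPKM without and 44.6 ± 1.16 FPKM with doxycycline (-0.09, adjusted p = 0.455). Its locus in the assembly also holds Nicn1. Dld, the dehydrogenase shared with other enzyme complexes, averaged 48.2 ± 0.188 and 50.2 ± 0.592 FPKM (-0.06, adjusted p = 0.583).

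The threonine pathway, which gives glycine and acetyl-CoA, showed no call. Tdh, the threonine dehydrogenase known to be abundant in mouse embryonic stem cells, measured 195 and 233 FPKM without doxycycline and 195 and 215 FPKM with it. Its range without the drug enclosed the range with it (0.06, SE 0.12, limma adjusted p = 0.719). Gcat, the ligase of the next step, averaged 33.9 ± 0.295 FPKM without and 38.9 ± 1.88 FPKM with doxycycline (-0.19, adjusted p = 0.117), in a locus shared with Galr3.

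The methionine cycle changed little. Mat2a, the catalytic subunit that makes S-adenosylmethionine, measured 216 and 211 FPKM without doxycycline and 262 and 238 FPKM with it. Both libraries without the drug were lower, but the difference did not pass (-0.23, SE 0.09, limma adjusted p = 0.109). Mat2b, the regulatory subunit of the same enzyme, rose to 84.5 ± 0.198 FPKM without doxycycline, against 67.7 ± 2.44 FPKM with it (0.32, SE 0.08, adjusted p = 0.0312). Mtr, the methionine synthase, averaged 21.1 ± 0.808 FPKM without and 18.6 ± 0.482 FPKM with the drug (0.18, adjusted p = 0.133), in a locus shared with the predicted gene Gm10336. Mtrr, which reactivates that synthase, averaged 15.0 ± 0.631 and 16.9 ± 0.609 FPKM (-0.17, adjusted p = 0.170). Ahcy, which hydrolyses S-adenosylhomocysteine, averaged 38.3 ± 4.25 and 44.2 ± 2.18 FPKM (-0.21, adjusted p = 0.181). Among these 5 genes only Mat2b passed, and it did not pass once any single library had been dropped.

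The transsulfuration genes, which carry homocysteine to cysteine, both fell. Cbs (chr17:31749481-31774144, minus strand), the cystathionine β-synthase, had 4.13 and 5.01 FPKM without doxycycline and 10.5 and 11.1 FPKM with it. It stood at 42.5% without the drug (log2 change -1.16, SE 0.12, limma adjusted p = 0.00295). Cth (chr3:157557212-157588047, minus strand), the cystathionine γ-lyase, had 111 and 132 FPKM without and 165 and 190 FPKM with doxycycline. Its groups did not overlap (-0.55, SE 0.13, adjusted p = 0.0254), yet the call was lost without the library off doxycycline numbered 0 (adjusted p = 0.0749) and without the doxycycline library numbered 1 (0.121).

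Asparagine synthetase RNA was the most abundant of the set with doxycycline and fell to 51.0% of that level without it. Asns (chr6:7625142-7643254, minus strand) measured 184 and 175 FPKM without doxycycline and 362 and 341 FPKM with it, a gap far larger than the spread within either condition (log2 change -0.97, SE 0.09, limma adjusted p = 0.00258). A 2001-nt isoform held 92.8% of it without and 94.9% with the drug. The aspartate aminotransferases that supply its substrate did not pass. Got1 averaged 90.6 ± 4.57 FPKM without and 101 ± 4.62 FPKM with doxycycline, and Got2 averaged 73.1 ± 4.58 and 87.8 ± 4.04 FPKM. A gene named Got2-ps1 was listed at 29.9 and 33.5 FPKM without and 39.9 and 43.0 FPKM with the drug, so the share of reads given to Got2 is uncertain.

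Of the proline genes, the last enzyme of synthesis and the first of breakdown both fell. Pycr1 (chr11:120497026-120505083, minus strand), a mitochondrial pyrroline-5-carboxylate reductase, had 9.52 and 8.62 FPKM without doxycycline and 16.2 and 17.2 FPKM with it (log2 change -0.84, SE 0.09, limma adjusted p = 0.00369). Prodh (chr16:18060450-18090296, minus strand), the proline dehydrogenase that starts its oxidation, had 2.62 and 3.19 FPKM without and 8.38 and 9.16 FPKM with the drug. At 33.1% of the level with doxycycline, it showed the largest change of the set (-1.45, SE 0.12, adjusted p = 0.00226). Aldh18a1, the enzyme that makes the pyrroline intermediate from glutamate, averaged 25.8 ± 3.77 FPKM without and 37.1 ± 6.37 FPKM with doxycycline and just missed the threshold (-0.51, SE 0.16, adjusted p = 0.0538). Pycrl, the cytosolic reductase, averaged 15.1 ± 3.24 and 19.4 ± 0.478 FPKM (-0.36, adjusted p = 0.115).

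The remaining enzymes handle glutamate, glutamine, alanine and the branched-chain amino acids, and differed by less. Glul, the glutamine synthetase, averaged 70.6 ± 0.801 FPKM without and 83.6 ± 2.46 FPKM with doxycycline (-0.24, limma adjusted p = 0.0640). Glud1, the glutamate dehydrogenase, averaged 151 ± 7.61 and 177 ± 3.82 FPKM (-0.24, adjusted p = 0.0852). Gpt2, the mitochondrial alanine aminotransferase, averaged 82.4 ± 3.32 and 73.0 ± 1.59 FPKM (0.17, adjusted p = 0.154). None of these 3 passed. Bcat1 averaged 249.9 ± 5.87 FPKM without and 289 ± 6.35 FPKM with the drug and did not pass (adjusted p = 0.112). Bcat2 rose to 64.2 ± 4.28 FPKM without doxycycline, against 51.4 ± 1.97 FPKM with it (0.32, SE 0.09, adjusted p = 0.0429), and it too did not pass once any single library had been dropped.

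Isoform estimates were steadier for some genes than for others, and each is a description without a test. The 2754-nt form of Shmt1 had 26.4 ± 1.08 FPKM without doxycycline and 44.9 ± 0.186 FPKM with it, and held 63.7% and 60.4% of the gene. The 1861-nt form of Pycr1 had 6.67 ± 0.0408 FPKM without and 9.67 ± 0.613 FPKM with the drug, and held 73.7% and 57.9% of the gene. The 2385-nt form of Prodh had 1.10 ± 0.668 FPKM without and 5.22 ± 0.473 FPKM with it. In these genes the most abundant form was lower without doxycycline in each library. In Mthfd1l the libraries split the reads differently among forms of nearly equal length, and the 3669-nt form had 22.2 and 17.0 FPKM without doxycycline but 4.29 and 36.4 FPKM with it. In Cth and Shmt2, picked after their values were seen, a form was higher in the number-0 library of both conditions. The 1815-nt form of Cth had 94.8 and 64.4 FPKM without and 132 and 83.7 FPKM with doxycycline. The 2298-nt form of Shmt2 had 26.0 and 12.1 FPKM without and 45.2 and 19.0 FPKM with it. Forms of other genes, also picked after their values were seen, split by library number too, in either direction. The 2478-nt form of Psat1 had 22.7 and 3.78 FPKM without and 43.7 and 9.78 FPKM with doxycycline. The 699-nt form of Glud1 was higher in the number-1 libraries, at 5.44 and 25.7 FPKM without and 9.10 and 26.8 FPKM with it. How many genes follow the library number was not counted. With only the most abundant isoform of each gene, 7 of the set fell and 0 rose, and that form of Mthfd1l had a log2 change of 0.59 (limma adjusted p = 0.700).

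**Figure D3:**
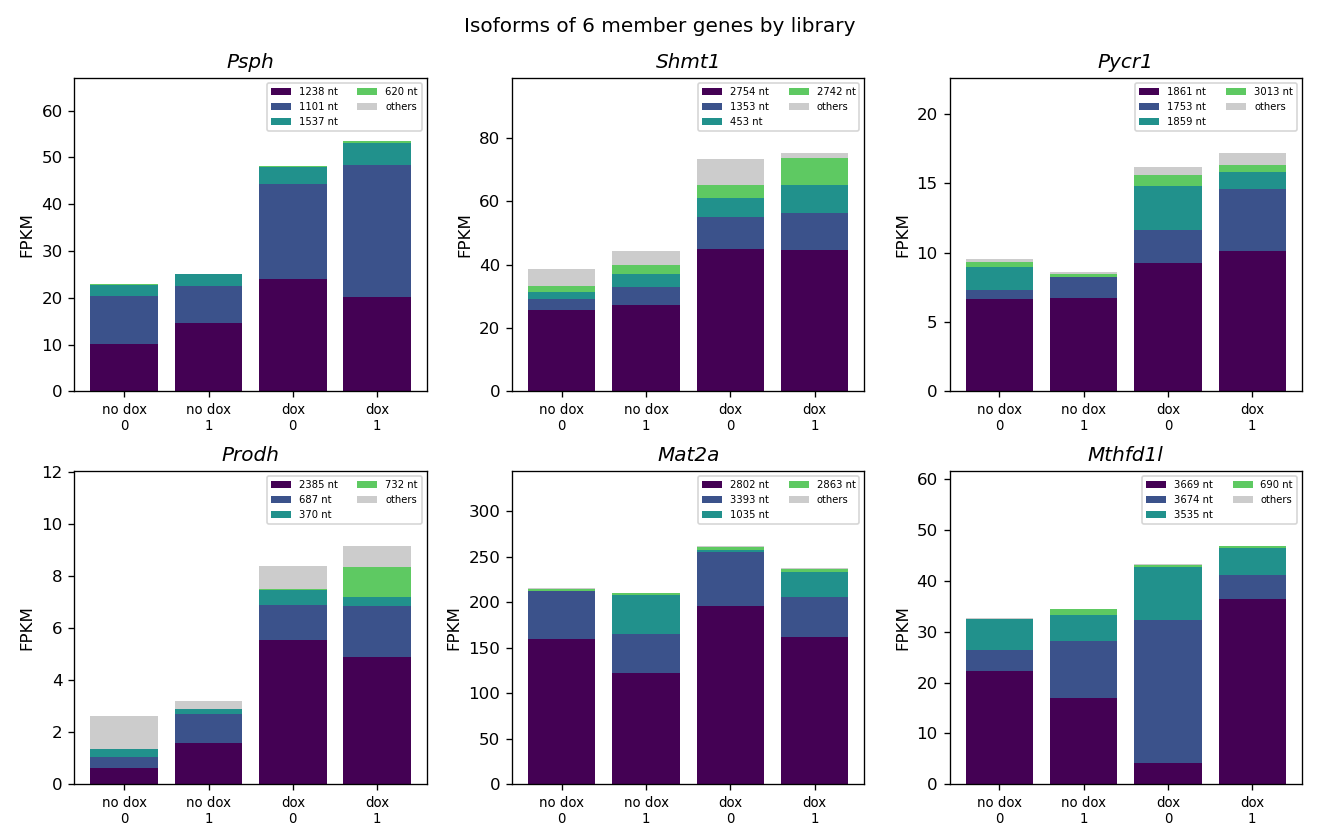
FPKM of the 4 most abundant isoforms and of all others together in each library for 6 of the genes, as stacked bars from 0; bars run from the libraries without doxycycline (no dox, numbers 0 and 1) to those with it (dox, numbers 0 and 1), and isoforms are named by length. The 2385-nt form of Prodh averages 1.10 FPKM without and 5.22 FPKM with doxycycline, while the 3669-nt form of Mthfd1l ranges from 4.29 to 36.4 FPKM within the doxycycline libraries.

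A motif known to be bound by ATF4 was searched near the start sites. The letters TGATGNAA (N is any base) are part of the C/EBP-ATF response element. They were looked for on both strands from 250 bases before to 50 after each start in RefSeq promoter windows (GRCm38.p6), which matched 34 of the 38 genes. They were found in Asns, Pycr1 and Got1, that is in 3 of 34 genes (8.82%), in 2 of the 14 matched genes that fell and 1 of the 18 that did not pass, against 251 of 9219 tested genes (2.72%). The 3 windows are shown because they hold these matches, with the matching letters in capitals. The Asns window (chr6:7693160-7693459, minus strand) and the Pycr1 window (chr11:120643699-120643998, minus strand) hold the motif in the direction of the gene, its first base at -23 and -103 from the start. The Got1 window (chr19:43524556-43524855, minus strand) holds it on the opposite strand at -102, so its capitals are the reverse complement.
Asns: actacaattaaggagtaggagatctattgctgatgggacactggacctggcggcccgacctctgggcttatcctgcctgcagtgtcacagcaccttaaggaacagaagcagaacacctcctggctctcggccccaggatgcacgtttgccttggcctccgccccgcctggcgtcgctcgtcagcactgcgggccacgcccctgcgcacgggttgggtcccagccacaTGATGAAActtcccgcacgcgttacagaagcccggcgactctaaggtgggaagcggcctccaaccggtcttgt
Pycr1: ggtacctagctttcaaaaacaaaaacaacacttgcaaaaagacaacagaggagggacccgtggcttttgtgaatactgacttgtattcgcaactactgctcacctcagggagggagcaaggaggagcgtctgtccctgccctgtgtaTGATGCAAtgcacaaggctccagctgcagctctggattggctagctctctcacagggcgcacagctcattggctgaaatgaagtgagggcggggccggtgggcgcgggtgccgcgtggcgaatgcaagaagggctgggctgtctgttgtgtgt
Got1: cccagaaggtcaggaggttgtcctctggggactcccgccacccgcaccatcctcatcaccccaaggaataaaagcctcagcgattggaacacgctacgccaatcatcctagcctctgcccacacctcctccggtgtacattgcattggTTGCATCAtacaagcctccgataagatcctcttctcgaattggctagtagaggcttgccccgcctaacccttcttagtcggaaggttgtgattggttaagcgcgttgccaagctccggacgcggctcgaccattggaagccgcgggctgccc
The first 2 of these genes fell and the third did not pass. The E-box CACGTG, the letters to which Myc dimers bind, was present in the windows of Tyms, Gcat, Cbs and Aldh18a1, 4 of 34 genes (11.8%) against 12.2% of tested genes, and of these Cbs fell. A match describes the letters in the window and does not show that a factor binds there.

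The set was searched for sites of the microRNAs that dominate embryonic stem cells. The miR-290 and miR-302 families share the seed AAGUGCU, bases 2 to 8, printed in capitals in the RefSeq mature sequences.
miR-291a-3p: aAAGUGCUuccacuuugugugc
miR-294-3p: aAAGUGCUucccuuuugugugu
miR-302b-3p: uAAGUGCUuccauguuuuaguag
The longest 3′ untranslated region of each gene was taken from GENCODE mouse release M21. Of the 38 genes, 34 held no match to the seed, where 81.6% of tested genes with such a region held none. These 34 included each of the 18 that passed. Bcat1 held 2 matches to the seed, of which at least 1 was an 8-base match (the seed match followed by A), and Tyms, Mtr and Mtrr held a 7-base match. For each gene 1 site is shown, the 8-base one for Bcat1, as DNA on the transcript strand with the match in capitals.
Bcat1: catacacacacAGCACTTAagttccattcc
Tyms: cttcaggtagaAGCACTTgcagtccctca
Mtr: tctggaaaagaAGCACTTttccagggacc
Mtrr: tctttaatcccAGCACTTgggaggcaggc
None of these 4 genes passed. Among the 11298 tested genes with an annotated region, 3.67% had an 8-base match as their best site (median log2 change 0.20), 14.7% a 7-base match (0.06) and 81.6% neither (-0.05).

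Genes of the neighbouring pathways were counted from lists outside the 38, beside the 21.3% of all genes tested that fell and the 19.7% that rose. De novo purine synthesis, which uses formyltetrahydrofolate and glycine, had 10 of 12 tested genes lower and 0 higher (median log2 change -0.46). Its largest changes were in Prps2 (-1.07, limma adjusted p = 0.00243) and Prps1 (-0.53, adjusted p = 0.00926), which make the ribose precursor, and in Gart (-0.63, adjusted p = 0.00723) and Atic (-0.55, adjusted p = 0.00799), whose enzymes use formyl-folate. Gart had 107 and 119 FPKM without doxycycline and 173 and 177 FPKM with it. In the methionine salvage and polyamine list 8 of 15 tested genes fell and 1 passed as higher (median -0.28). That gene, Bhmt2, a homocysteine methyltransferase named after its values were seen, had 1.10 and 0.992 FPKM without and 0.528 and 0.310 FPKM with doxycycline, and entered the fit only through its level without the drug. Odc1, the ornithine decarboxylase that opens polyamine synthesis, had 110 and 119 FPKM without and 299 and 303 FPKM with doxycycline (-1.39, adjusted p = 0.00168). The spermine and spermidine synthases Sms (-0.88, adjusted p = 0.00422) and Srm (-0.87, adjusted p = 0.00853) and the glycine methyltransferase Gnmt (-0.96, adjusted p = 0.0192), tested only through its level with the drug, were lower too.

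Of the folate uptake genes and other folate enzymes, 3 of 12 tested were lower and 1 higher (median -0.20), where 21.3% of all genes fell and 19.7% rose, so the lower count is near that of all genes. Among those that fell were Mthfsd (-0.83, limma adjusted p = 0.00303) and the folate carrier Slc19a1 (-0.61, adjusted p = 0.0338). Dmgdh, the mitochondrial dimethylglycine dehydrogenase, rose to 0.979 and 1.09 FPKM without doxycycline, against 0.151 and 0.161 FPKM with it (1.23, adjusted p = 0.00452), and was tested only through its level without the drug. Of 18 other amino acid enzymes tested, 6 fell and 2 rose (median -0.12), beside the same 21.3% and 19.7% of all genes. The ornithine aminotransferase Oat (0.62, adjusted p = 0.0061) and the glutaminase Gls2 (0.56, adjusted p = 0.00906) rose, and the asparaginase-like Asrgl1 (-0.52, adjusted p = 0.0241) and the glutamate-cysteine ligase subunit Gclc (-0.47, adjusted p = 0.0102) were among those that fell.

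**Figure D4:**
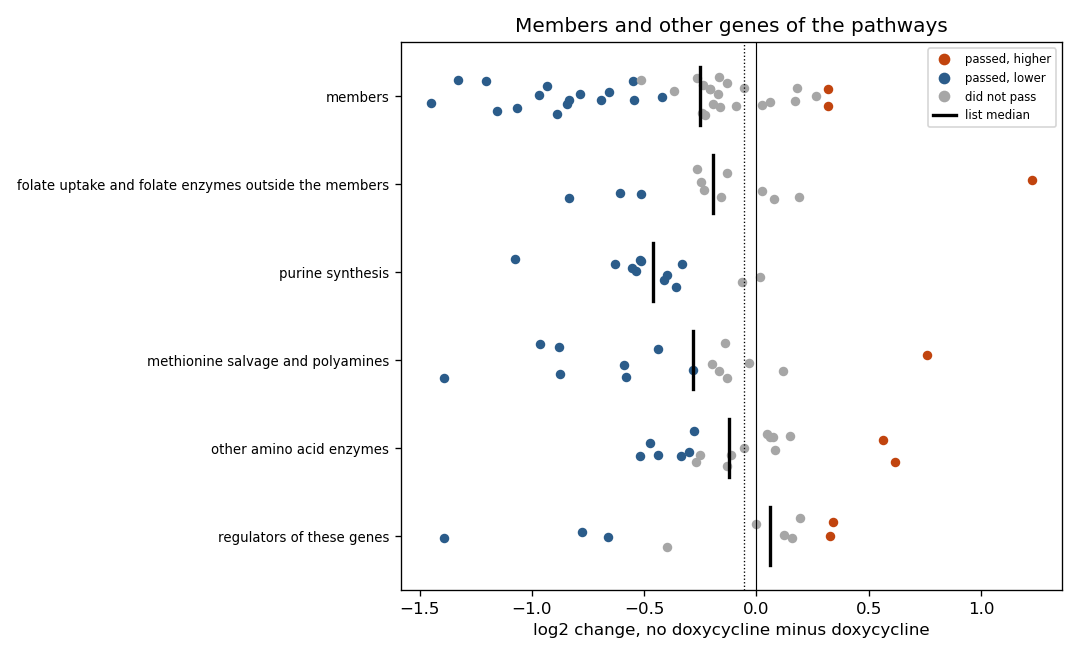
Log2 change (no doxycycline minus doxycycline) of each tested gene among the 38 and in 5 lists outside them; each point is a gene, blue fell, orange rose, grey did not pass, the thick bar is the list median and the dotted line the median of all genes (-0.06). In purine synthesis 10 of 12 points are blue, and the list median is -0.46.

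Regulators known to act on these genes were not uniform. Atf4 RNA had 163 and 180 FPKM without doxycycline and 259 and 284 FPKM with it, with no overlap (log2 change -0.66, SE 0.10, limma adjusted p = 0.00826). Myc had 5.47 and 7.57 FPKM without and 17.0 and 18.4 FPKM with the drug (-1.39, SE 0.16, adjusted p = 0.00403). Mycn was more abundant, at 73.8 and 79.7 FPKM without and 77.9 and 75.8 FPKM with doxycycline. It did not pass (-0.0036, limma adjusted p = 0.976). Cebpb, a partner of ATF4, fell too (-0.78, adjusted p = 0.00999), while Ddit3, another gene of that response, did not pass (-0.40, adjusted p = 0.0811). Cebpg did not pass either (0.19, limma adjusted p = 0.194). Mycn and Cebpg were named after their values were seen. Nfe2l2 (0.33, adjusted p = 0.0371) and Trp53 (0.34, adjusted p = 0.0477), named after their values were seen, rose. Of the 10 regulators 3 fell and 2 rose, counts near the 21.3% and 19.7% of all genes, with a median change of 0.06, and their part in the changes of the enzymes was not tested. ATF4 protein is set largely by translation, which these libraries do not measure.

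Across the series, the number-1 libraries stepped in whole fragments, with totals of 46.9 M without and 46.5 M with doxycycline, and the depth of the number-0 libraries is unknown. Ago2, listed under its older symbol Eif2c2, had 28.7 and 28.8 FPKM without doxycycline and 35.2 and 36.7 FPKM with it (log2 change -0.32, SE 0.08, limma adjusted p = 0.0287). That call was lost in 6 of 15 alternatives, among them leaving out any 1 library, so the RNA checks the labels only weakly. The 9 embryonic stem cell markers summed to 4246 and 4846 FPKM without and 4132 and 4632 FPKM with the drug, with none at 0, and Dppa5a held the largest part of the sum (1967 ± 258 FPKM without and 1655 ± 230.3 FPKM with doxycycline). Of these 9, Nanog rose (log2 change 0.54, limma adjusted p = 0.0367), while Zfp42 (-0.49, adjusted p = 0.0199), Klf4 (-0.42, adjusted p = 0.0279) and Utf1 (-0.61, adjusted p = 0.0216) fell. The 12 markers of differentiated lineages summed to 30.7 and 33.6 FPKM without and 18.3 and 21.4 FPKM with it. Otx2 and Nes rose, Gata4 passed as higher but entered the fit only through its level without the drug, and 7 of the 12 stayed under 1 FPKM in every library. The 8 fibroblast and mesenchymal markers summed to 5.23 and 5.40 FPKM without and 4.64 and 4.53 FPKM with doxycycline, with Col3a1 and Postn at 0 in every library. These marker levels moved alongside the enzymes, and their part in the result was not tested.

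The 16 falls were recomputed under 15 other settings. Phgdh, Psat1, Shmt1, Mthfd2, Gcsh, Asns and Prodh passed as lower in each of them. The number that fell was 7 with the most abundant isoform alone and 25 with the library medians set equal. After the isoforms used had been rescaled to TPM (transcripts per M), the median of the set was -0.093 while that of all genes was 0.10, a shift of 0.16 from the values as deposited. Of the genes of the set that passed, 88.9% were lower in the values as deposited and 76.2% with TPM. Of all genes that passed, 48.1% were higher in the values as deposited and 67.6% with TPM.

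**Figure D5:**
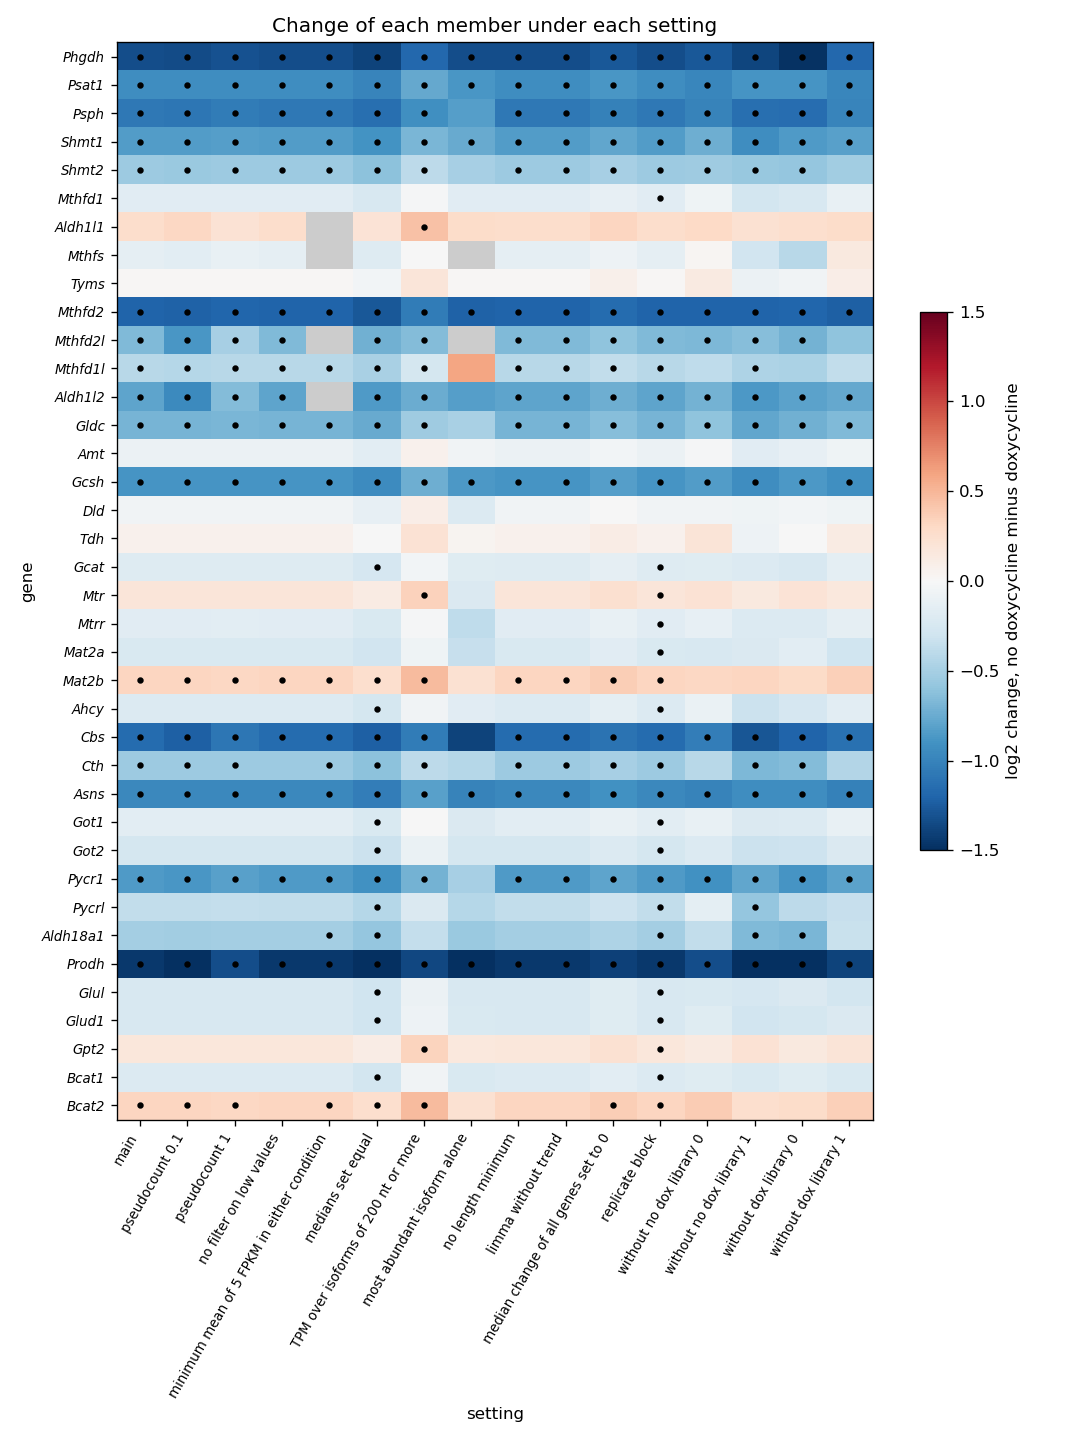
Log2 change (no doxycycline minus doxycycline, colour, blue lower and red higher) of each of the 38 genes as reported and under 15 other settings; a dot marks genes that passed in limma and grey marks genes not tested in that setting. Phgdh, Psat1, Shmt1, Mthfd2, Gcsh, Asns and Prodh are blue with a dot in each column.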

How the data were processed

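The authors deposited FPKM values per isoform of an assembly made with Cuffmerge, from reads of 4 polyA libraries. The build NCBIM37 and the tools TopHat2 2.0.9 and Cufflinks 2.1.1 are named in the submitters' processing notes. Of 181027 isoforms, 31251 had no gene name and 8207 were shorter than 200 nt or of another class than "=" or "j" in the deposited annotation. Isoforms under 200 nt held 98.9% to 99.6% of a library's FPKM, so they were left out. The 141569 others were summed by gene symbol, 236 isoforms having had a symbol that a spreadsheet had turned into a date. They summed to 449360 and 485192 FPKM without doxycycline, and 508954 and 535107 FPKM with it. A scaling that counts the short isoforms could shift each library's values as a whole.

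Genes were tested with limma 3.58.1 in R 4.3.3 (trend, two-sided, 2 residual and 3.21 prior degrees of freedom) on log2(FPKM + 0.5), with Benjamini-Hochberg adjustment over 13207 genes. At an unadjusted p under 0.05 stood 6792 genes. Same-numbered libraries were not paired in this fit, since the labels' replicate numbers could not be tied to the numbers in the files. Depth was read from low FPKM values, which were whole reads within 0.1 read in 100% of cases in the number-1 libraries and in 33.9% and 33.0% in the number-0 libraries without and with doxycycline, where chance gives 20%. The procedure was also run on simulated data in which libraries varied independently and a small part of the genes changed. That run does not check it for libraries that vary together or for changes in many genes. Each of the 38 genes is named, the genes that passed with a change of at least 0.5 and 12 listed enzymes have every library's value, and the 4 largest changes of each other list are named with Atf4 and Myc, except 1 gene that is not reported here. The 38 genes and the lists were chosen with earlier results of these data known. Alternatives were 2 pseudocounts, 2 filters on low values, 3 scalings, the most abundant isoform alone, no length minimum, no trend, a replicate block and leaving out each library.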

Additional observations from a re-analysis of the deposited data

How the results depend on the processing

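The number of genes in the set that fell was 16 as reported, 25 with library medians set equal, 7 with the most abundant isoform alone and 12 to 18 with 1 library left out. The lowest, 12, came without the doxycycline library numbered 1. The 2 rises became 1 with no filter on low values, with no length minimum and without the trend, 5 with TPM, and 0 with the most abundant isoform alone and with any 1 library left out. The set's median ran from -0.35 to -0.21 with 1 library left out and was -0.093 with TPM. Over all genes, the most abundant isoform alone gave 2053 calls (1067 higher, 986 lower), TPM gave 3996 higher, and leaving out 1 library gave 3229 to 4416 calls, of them 1413 to 2485 lower and 1758 to 2054 higher. The share of passing genes that were higher was 48.1% as deposited, 38.0% with medians equal, 56.1% with the median change of all genes set to 0 (an alternative chosen after seeing the data) and 67.6% with TPM. With the library numbers as a block, 8157 genes passed, 4530 of them lower, and the set had 28 lower and 4 higher. Deviations of same-numbered libraries from the mean of their condition correlated at 0.46 over 13207 genes. With 2 libraries a condition, the 2 pairs give the same value by construction. The value is thus 1 observation, a hint from the data and not the design.

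In the other lists, purine synthesis fell in 6 genes with TPM, 4 with the most abundant isoform alone and 3 to 8 with 1 library left out. Folate genes outside the set had 1 lower with TPM and with the most abundant isoform alone (1 to 3 with 1 library left out). They had 0 higher with a minimum of 5 FPKM and with the most abundant isoform alone, and 0 to 1 with 1 library left out. Methionine salvage and polyamine genes had 5 lower without a filter and 3 with the most abundant isoform alone (6 to 7 with 1 library left out). They had 0 higher at 5 FPKM and with the most abundant isoform alone, 3 with TPM and 0 to 1 with 1 library left out. The other amino acid enzymes had 2 lower with no filter and with TPM, 3 with the median change set to 0, and 0 lower and 1 higher with the most abundant isoform alone (0 to 2 lower and 2 higher with 1 library left out). The regulators had 0 higher with no filter and with the most abundant isoform alone, 1 with no length minimum and without the trend, and 0 to 1 with 1 library left out.

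Of the 38 genes, those that changed sign had not passed, except Mthfd1l (0.59 with the most abundant isoform alone). Tyms (-0.040) and Tdh (-0.0034) did so with medians equal, Amt (0.067) and Dld (0.10) with TPM, and Mtr (-0.22) with the most abundant isoform alone. With 1 library left out, Mthfs ran from -0.41 to 0.15, Tyms from -0.092 to 0.14 and Tdh from -0.071 to 0.19. Besides the losses given above, the most abundant isoform alone ended the calls of Psph (limma adjusted p = 0.0619), Shmt2 (0.124), Aldh1l2 (0.125), Gldc (0.251), Cbs (0.0731), Cth (0.357) and Pycr1 (0.0554), and no filter ended that of Cth (0.0667). The cause was not tested. With 1 library left in a condition, limma takes it to vary like the other condition. With 2 libraries a condition and an unknown depth in 2 of the 4, changes near the threshold are uncertain.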
